A study of Mus musculus with 4 samples.

Results

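The 9 miRNAs described here are the miR-204 family and the miRNAs encoded in introns of Htr2c. They were taken by name from a table of small RNAs bound to the RNA-induced silencing complex (RISC) of mouse brain, as mmu-miR-204-5p, mmu-miR-204-3p and mmu-miR-211-5p on the one side and mmu-miR-448-5p, mmu-miR-448-3p, mmu-miR-1264-5p, mmu-miR-1264-3p, mmu-miR-1298-5p and mmu-miR-1298-3p on the other, written without the species prefix from here on. All 9 names were found, among 1029 miRNA names in the table, with 246 of its 85704 sequences. The sequences of a name were summed in each library. The libraries were made by Ago-RP-Seq, in which a peptide of GW182 pulls the Argonaute proteins out of a lysate and the RISC-bound small RNAs (R-sRNAs) they hold are sequenced. The 4 libraries came from the combined cortex and hippocampus of BL6 mice (C57BL/6J background), 2 from 2-month-old and 2 from 18-month-old animals. No allele or treatment is named for either age, so the libraries differ by age alone as far as the labels go. Neither the labels nor the methods say whether a library held 1 animal or several, and the p-values below therefore measure the spread between these libraries only.

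A miRNA hairpin is cut into a duplex with a 5p and a 3p arm, and as a rule 1 arm is kept in the RISC, where its seed, the bases near the 5′ end, pairs with target mRNAs. miR-204 lies in an intron of Trpm3 and its close relative miR-211 in an intron of Trpm1, both genes of TRPM ion channels, and miR-204 is known from the choroid plexus and the retinal pigment epithelium, while miR-211 is known from pigment cells. Htr2c encodes the serotonin 2C receptor, whose mRNA is abundant in the choroid plexus and is also found in neurons. The label of choroid plexus could not be tested in these libraries, since cortex and hippocampus were lysed whole. Of 9 further miRNAs listed for choroid plexus and ciliated epithelium, 8 were in the table, and their summed level was between 919 and 1437 CPM (read numbers scaled to the same total in each library), against 144893 to 192637 CPM for 6 neuronal miRNAs. In such bulk samples, fewer cells of a type and less RNA per cell cannot be told apart.

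The most abundant sequence of each miRNA is shown because its seed sets what the miRNA can pair with and which other R-sRNAs it shares that seed with. Capitals mark the seed at bases 2 to 8, and each line runs 5′ to 3′.
miR-204-5p: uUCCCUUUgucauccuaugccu
miR-211-5p: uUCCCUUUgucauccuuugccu
miR-204-3p: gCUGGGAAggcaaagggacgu
miR-448-5p: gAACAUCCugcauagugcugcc
miR-448-3p: uUGCAUAUguaggauguccca
miR-1264-5p: aGGUCCUCaauaaguauuuguu
miR-1264-3p: cAAAUCUUauuugagcaccugu
miR-1298-5p: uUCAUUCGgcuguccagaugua
miR-1298-3p: cAUCUGGGcaacugauugaacu

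miR-204-5p and miR-211-5p shared 1 seed, and the 6 miRNAs of Htr2c and miR-204-3p each had a seed of their own. Over their 22 bases, miR-204-5p and miR-211-5p differed at 1 position, A17U, counted from the 5′ end with the base of miR-204-5p first. They shared their first 16 bases, and no read in the table fitted inside both hairpins, so the names could be told apart by their letters. Letters alone cannot separate miR-211-5p from a miR-204-5p read with a miscalled base at the differing position. Whether such reads were among those of miR-211-5p was not tested. In 7 of the 8 miRNAs with a mature sequence in RefSeq (GRCm38.p6) the most abundant sequence was that mature sequence, and in miR-448-3p it was 1 base shorter at the 3′ end. miR-1264-5p was not matched in RefSeq.

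On GRCm38, the hairpin of miR-204 lies at chr19:22750605-22750672 in intron 6 of Trpm3, and that of miR-211 at chr7:64205806-64205911 in intron 6 of Trpm1. The Htr2c hairpins lie on the plus strand of chromosome X, the strand of the host gene. miR-1264 is at chrX:147010601-147010686 and miR-1298 at chrX:147064905-147065002, both in intron 2 of transcript Htr2c-207, and miR-448 is at chrX:147158210-147158321 in its intron 4. The annotation holds 2 more hairpins in intron 2, miR-764 at chrX:147002259-147002366 and miR-1912 at chrX:147009441-147009527. These 5 hairpins span 156 kb, and none of the hairpins named here overlaps an exon of its host. RefSeq also places the mature arms of miR-1911 between miR-1298 and miR-448, at chrX:147106978-147107000 and chrX:147107015-147107036. Neither arm had a sequence in the table.

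The 9 miRNAs took 0.235% to 0.309% of the CPM of a library, and most of it was 1 miRNA. The guide strand of the miR-204 hairpin, mmu-miR-204-5p, was read at 2100 and 2623 CPM in the young libraries and at 2256 and 2786 CPM in the old ones, which placed it at rank 71 of the 1029 names by mean level (2441 CPM). The libraries differed by at most 1.33-fold, and the ages overlapped. Its 3p arm gave 80.8 and 62.0 CPM in the young libraries and 65.1 and 94.6 CPM in the old. The 5p arm exceeded the 3p arm by 26.0- to 42.3-fold within a library.

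mmu-miR-211-5p was close to the limit of the depth. Its levels of 1.53 and 5.62 CPM in young and 2.55 and 3.64 CPM in old libraries stood for 16, 64, 27 and 33 reads, where 3 reads were worth 0.263 to 0.331 CPM. The highest and lowest libraries were both from 2-month-old mice. miR-204-5p exceeded it by 467- to 1376-fold, so the reads of the shared seed came almost wholly from the Trpm3 locus.

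The Htr2c miRNAs were all well below miR-204-5p. mmu-miR-1298-5p was the most abundant by mean level, with 76.8 and 59.1 CPM in young and 22.8 and 117 CPM in old libraries. The old libraries held both its lowest and its highest value. miR-448-5p was the least variable of the 9 and was read at 25.7, 24.4, 27.0 and 26.7 CPM, in the order 2 months replicate 1 and 2, then 18 months replicate 1 and 2, which is kept for the values below.

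The other 4 Htr2c miRNAs had mean levels between 11.6 and 16.7 CPM. miR-448-3p was read at 15.2, 18.1, 10.2 and 23.5 CPM, with both extremes again at 18 months. miR-1264-3p was read at 21.3, 12.8, 11.1 and 13.9 CPM. miR-1264-5p was read at 12.8, 26.9, 6.05 and 12.9 CPM, and in each age replicate 2 was the higher. miR-1298-3p was read at 17.7, 9.57, 8.79 and 10.3 CPM, and its mean of 11.6 CPM was just over the 10 CPM required for testing.

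In the order of mean levels, 3 of the 8 steps were larger than the spread over the 4 libraries. These were the steps from miR-204-5p to miR-204-3p, from miR-448-5p to miR-448-3p (1.55-fold) and from miR-1298-3p to miR-211-5p (3.48-fold). The ranges of miR-204-3p and miR-1298-5p overlapped, as did those of miR-1298-5p and miR-448-5p and those of the neighbours among miR-448-3p, miR-1264-3p, miR-1264-5p and miR-1298-3p.

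**Figure D1:**
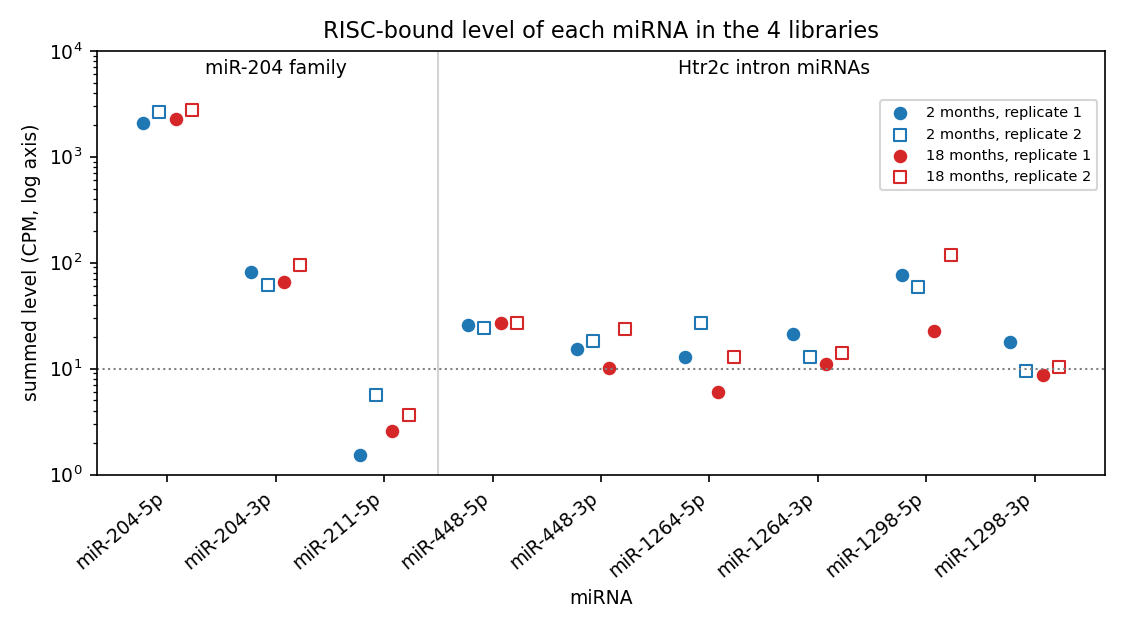
Summed CPM (log axis) of the 9 miRNAs in the 4 libraries, with 1 point per library, blue for 2 months, red for 18 months, filled for replicate 1 and open for replicate 2, and a dotted line at the 10 CPM filter. miR-204-5p lies between 2100 and 2786 CPM in every library, while miR-1298-5p runs from 22.8 to 117 CPM within the 18-month-old pair.

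Summed, miR-204-5p and miR-211-5p reached 2102, 2629, 2258 and 2789 CPM, and the 6 Htr2c miRNAs reached 169, 151, 85.9 and 205 CPM. The family thus exceeded the Htr2c miRNAs by 12.4-, 17.4-, 26.3- and 13.6-fold, and by 16.0-fold over the 4 libraries together. Both extremes of the Htr2c sum were 18-month-old libraries, whereas the family sum was the higher in replicate 2 of each age. As a log2 ratio of Htr2c miRNAs to the family, the libraries gave -3.63, -4.12, -4.72 and -3.77, so the ages overlapped. miR-1298-5p alone was 45.3%, 39.2%, 26.5% and 57.4% of the Htr2c sum, and without it the sum was 92.6, 91.8, 63.1 and 87.2 CPM.

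The Htr2c hairpins were not read at like levels along the host gene. The 3p arm of miR-764, 39.7 kb from the start of Htr2c, gave 100, 126, 58 and 100 reads and its 5p arm 51, 57, 43 and 79 reads, with mean levels of 9.28 and 5.66 CPM. miR-1912, at 46.9 kb, gave 10, 19, 6 and 32 reads on its 3p arm (0.953, 1.67, 0.568 and 3.53 CPM) and 3, 4, 2 and 10 reads on its 5p arm. miR-1264 lies 48.1 kb from the start, next to miR-1912, and its 3p arm had a mean of 14.8 CPM against 1.68 CPM for that of miR-1912. The order of the hairpins in the gene was not the order of their levels, since the highest, miR-1298, sits between miR-1264 and miR-448.

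**Figure D2:**
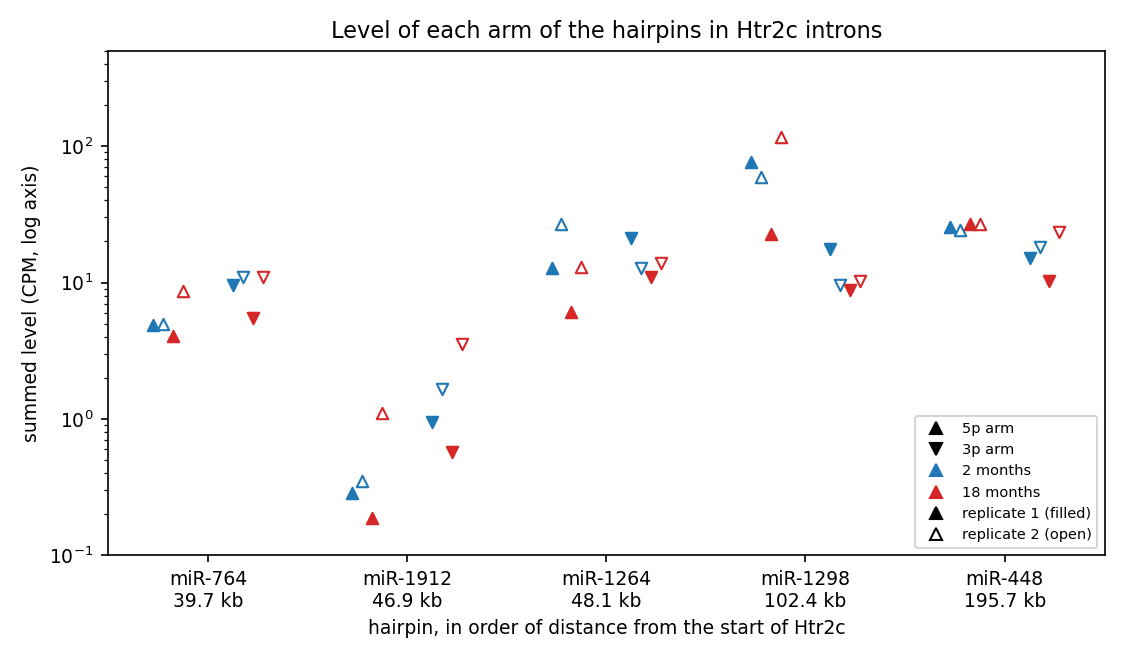
Summed CPM (log axis) of the 5p arm (upward triangles) and 3p arm (downward triangles) of 5 hairpins in Htr2c introns, in order of their distance from the start of the gene, with 1 point per library. Both arms of miR-1912, 46.9 kb into the gene, lie at or under 3.53 CPM, and the 5p arm of miR-1298, 102.4 kb into it, reaches 117 CPM.

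The age comparison asks whether the miRNAs held by the RISC of the 18-month-old brain differed from those at 2 months. By limma on log2(CPM + 1), fitted across the 456 miRNAs with a mean of at least 10 CPM, 0 of the 8 miRNAs that passed this filter had an unadjusted p under 0.05, and edgeR and DESeq2 on the recovered reads also called 0. The same test called 16.2% of all miRNAs tested (4.17% higher and 12.1% lower at 18 months), and 0.219% after Benjamini-Hochberg adjustment. miR-211-5p, at a mean of 3.33 CPM, did not pass the filter. The log2 changes were below 0 for 5 of the 8 and above 0 for 3, with a median of -0.22, and the median over all 456 was -0.22 too.

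miR-204-5p had a log2 change of 0.09 (SE 0.23, 95% interval -0.47 to 0.66, adjusted p = 0.859, limma), and miR-204-3p one of 0.15 (SE 0.28). These intervals cover both a rise and a fall, so they bound the change and do not show that the levels were equal. miR-448-5p, at 0.10 (SE 0.24), was the only one of the 9 whose ages did not overlap, where 53.5% of all tested miRNAs did not. The 4 values of miR-448-5p lay within 1.10-fold of each other.

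miR-1264-5p had the largest log2 change of the 8, -0.98 (SE 0.48, 95% interval -2.15 to 0.18, unadjusted p = 0.0853, adjusted p = 0.361, limma). The value of 12.8 CPM in 2 months replicate 1 lay under the 12.9 CPM of 18 months replicate 2, and in limma fits without either of these libraries the log2 change was -1.49 and -1.47, with an unadjusted p of 0.0188 and 0.0405. Without 2 months replicate 2 it was -0.48 (unadjusted p = 0.363, limma), and without 18 months replicate 1 it was -0.50 (unadjusted p = 0.386, limma). miR-1264-3p (-0.39, SE 0.34) and miR-1298-3p (-0.42, SE 0.37) had log2 changes close to their standard errors. Without 2 months replicate 1, these were -0.044 and -0.0096, and without 2 months replicate 2 they were -0.73 and -0.84.

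The sign of the change was not fixed for miR-448-3p and miR-1298-5p. miR-448-3p had a log2 change of -0.08 (SE 0.42), and 0.11 once each library was divided by its median-of-ratios factor. miR-1298-5p had one of -0.37 (SE 0.70, 95% interval -2.05 to 1.32) by limma and 0.25 by edgeR on the recovered reads. Without 18 months replicate 1 its log2 change was 0.79 (unadjusted p = 0.0397, limma), and without 18 months replicate 2 it was -1.52 (unadjusted p = 0.00363, limma). Which library stood for the old mice thus decided the direction for miR-1298-5p.

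The scale of the libraries also bears on the direction of the calls as a whole. On the CPM scale, 19 miRNAs were called higher and 55 lower at 18 months, and after rescaling, which moved the median change of all miRNAs to -0.01, 39 were called higher and 25 lower. Relative to that scale, 4 of the 8 miRNAs were higher and 4 lower, with a median of -0.02, and 0 had an unadjusted p under 0.05. On the CPM scale, 4 of 5 of the miR-200 family and 3 of 3 of the miR-183 cluster, listed for other tissues, were called higher at 18 months. These calls were at an unadjusted p under 0.05, where 4.17% of all 456 were called higher. The lowest adjusted p among these miRNAs was 0.249 (limma). Of the 7 tested choroid plexus and ciliated epithelium miRNAs, 0 were called, where 16.2% of all were. The part of these lists in the values above was not tested.

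**Figure D3:**
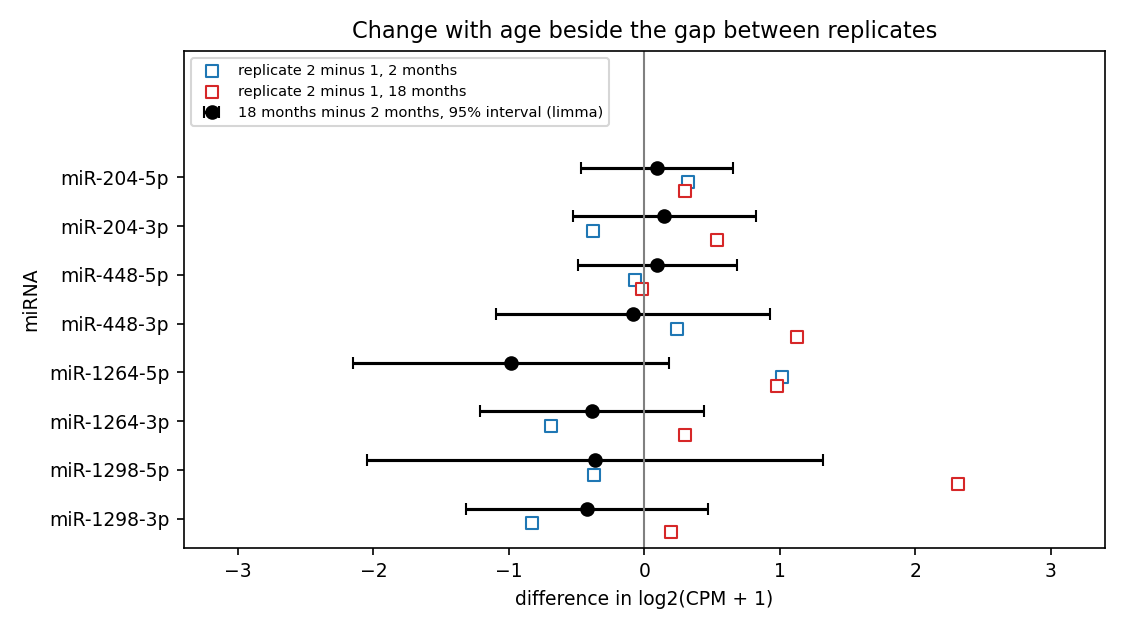
Differences in log2(CPM + 1) for the 8 tested miRNAs, with black points for 18 months minus 2 months and their 95% limma intervals, and open squares for replicate 2 minus replicate 1 at 2 months (blue) and 18 months (red). All 8 intervals include 0, and the replicate gap of miR-1298-5p at 18 months, 2.31, is larger than any of the 8 changes with age.

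The libraries of 18-month-old mice differed from each other in several Htr2c miRNAs. miR-1298-5p was 5.15-fold higher in replicate 2 than in replicate 1 (241 against 1064 reads), and its gap of 2.31 on the log2 scale was the second largest of 456, after that of miR-199a-5p. miR-448-3p was 2.30-fold higher in replicate 2 (rank 11) and miR-1264-5p 2.13-fold (rank 19). For all tested miRNAs the median size of the gap was 0.27. At 18 months, 5 of the 6 Htr2c miRNAs were higher in replicate 2, with a median gap of 0.64, whereas at 2 months 2 of the 6 were, with a median gap of -0.22. With its sign kept, the median gap of all tested miRNAs was 0.06 at 18 months and -0.01 at 2 months. The share of all tested miRNAs higher in replicate 2 was not counted. The 6 are arms that share hairpins, so they do not count as independent.

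Outside the 6, the arms of miR-764 were 2.14-fold (5p) and 2.01-fold (3p) higher in 18 months replicate 2, and the 3p arm of miR-1912 was 6.21-fold higher on 6 and 32 reads. miR-204-5p was 1.24-fold higher there. The choroid plexus and ciliated epithelium list was 1.25-fold higher in replicate 2 at 18 months by its sum, with 5 of its 8 miRNAs higher. The largest gap was that of miR-34b-5p, at 42.2 and 110 CPM. Replicate 2 was the lower for miR-449c-5p (0.583-fold), miR-34c-3p (0.911-fold) and miR-31-5p (0.982-fold). The list was 1.26-fold higher in replicate 2 at 2 months as well, where miR-1298-5p was 0.770-fold. miR-31-5p was the most abundant of the list, and without it the other 7 were 1.60-fold higher in replicate 2 at 18 months and 1.06-fold at 2 months. Other lists also differed between the 18-month-old libraries, as replicate 2 was 1.66-fold replicate 1 for blood, 1.61-fold for oligodendrocytes, 1.33-fold for endothelium, 1.10-fold for the miR-200 family, 0.983-fold for microglia and leukocytes, 0.868-fold for the miR-183 cluster and 0.778-fold for neurons. These are sums, and the miRNAs within a list did not all go 1 way. Higher in replicate 2 were 2 of 2 blood, 2 of 3 oligodendrocyte, 2 of 4 endothelial and 2 of 5 miR-200 family miRNAs. So were 2 of 3 microglia and leukocyte, 1 of 3 miR-183 cluster and 3 of 6 neuronal miRNAs. The part of these lists in the gap was not tested.

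The arms of 1 hairpin did not always move together. At 18 months, miR-1298-5p differed by 5.15-fold between the replicates and miR-1298-3p by 1.17-fold (93 reads in each). Among 142 hairpins with both arms tested, the arms of miR-1298 had the most unequal replicate gaps at 18 months, 2.11 apart on the log2 scale where the median hairpin was 0.37 apart, and those of miR-448 ranked 9, at 1.14. At 2 months the arms of miR-1264 were 1.70 apart (rank 9), as the 5p arm was 2.10-fold higher in replicate 2 and the 3p arm 0.603-fold. Other pairs lay nearer the median hairpin. At 18 months the arms of miR-204 were 0.23 apart (rank 99) and those of miR-1264 0.68 (rank 34). At 2 months, where the median was 0.40, miR-448 was at 0.31 (rank 82), miR-1298 at 0.45 (rank 63) and miR-204 at 0.70 (rank 34).

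As a share of the reads of both arms, miR-204-3p held 3.70%, 2.31%, 2.80% and 3.29%, so the 5p arm dominated in every library. miR-448 was more evenly loaded, with 37.1%, 42.6%, 27.5% and 46.8% on the 3p arm, and at 18 months the 95% Wilson intervals, 23.3% to 32.1% and 42.3% to 51.4%, did not overlap. miR-1264 carried 62.5%, 32.3%, 64.6% and 51.9% on the 3p arm, so its major arm was the 3p arm in 3 libraries and the 5p arm in 2 months replicate 2. miR-1298 carried 18.8%, 13.9%, 27.8% and 8.04% on the 3p arm.

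The ages overlapped in all 4 hairpins (exact permutation test, two-sided, p = 1 for miR-204, miR-448 and miR-1298 and p = 0.667 for miR-1264, where 2 libraries against 2 cannot go below 0.333). The Wilson intervals cover counting error only. Between the libraries of 1 age they did not overlap for miR-204 at either age, for miR-1264 at 2 months and for miR-448 and miR-1298 at 18 months, and they overlapped in the other pairs. In miR-764, the 3p share was 66.2% and 68.9% at 2 months and 57.4% and 55.9% at 18 months. In miR-1912, on 8 to 42 reads per library, it was 76.9% and 82.6% at 2 months and 75.0% and 76.2% at 18 months. Neither overlapped between the ages, and the exact permutation p was 0.333 for each, the smallest possible. How many of all hairpins separate the ages in this share was not counted.

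**Figure D4:**
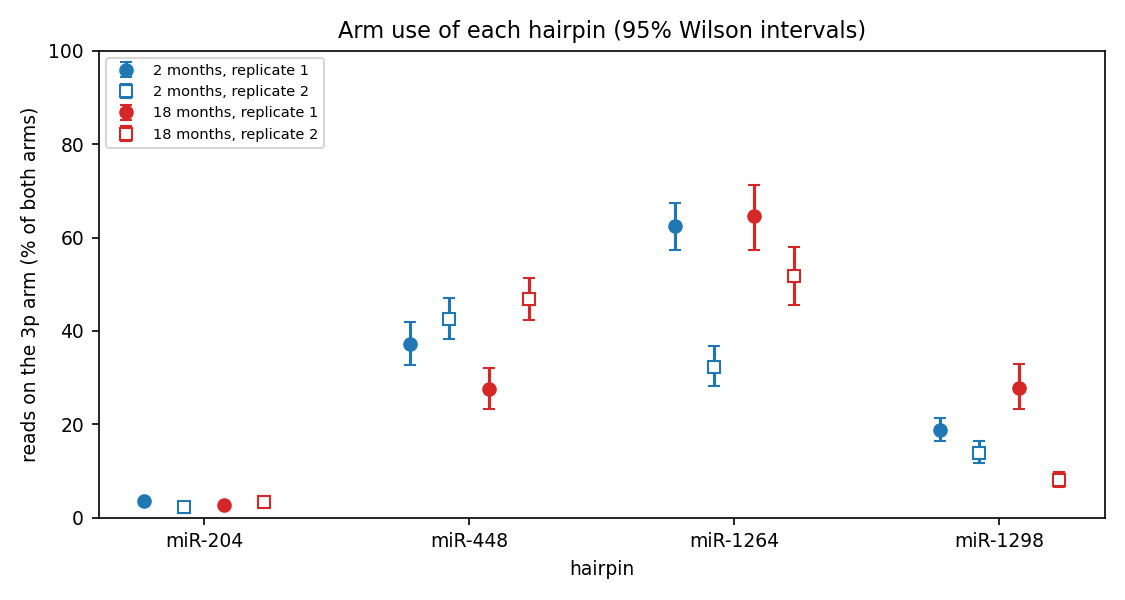
Share of the reads of both arms that lay on the 3p arm (%) for 4 hairpins, with 1 point per library and its 95% Wilson interval, which covers counting error only. miR-204 stays at or under 3.70%, while miR-1298 runs from 8.04% to 27.8% and miR-448 from 27.5% to 46.8% between the 2 libraries from 18-month-old mice.

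By the rule of the nearest patterns, the 3 tested miRNAs whose centred log2(CPM + 1) values over the 4 libraries lay closest were named for each miRNA. miR-204-5p was nearest to miR-203-3p, miR-8114 and miR-223-3p. miR-1264-3p and miR-1298-3p, from hairpins 54 kb apart, were near neighbours (distance 0.127), and miR-218-5p was among the nearest of both. Neither 3p arm had its own 5p arm among its nearest 3. miR-1298-5p had no close neighbour, as its nearest, miR-329-5p, miR-34b-5p and miR-199a-5p, lay at distances of 0.737 to 0.829. For miR-1264-5p these were miR-873a-5p, miR-466c-5p and miR-669d-5p, for miR-448-3p miR-34a-3p, miR-20a-5p and miR-329-3p, and for miR-448-5p miR-93-5p, miR-195a-5p and miR-25-3p. For miR-204-3p they were miR-15a-5p, miR-30d-3p and miR-27a-3p, and the third neighbour of miR-1298-3p was miR-592-5p and the second of miR-1264-3p miR-103-3p. With 4 libraries such likeness is a description only.

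The 6mer seed viability of the table was measured by the authors in mouse cell lines that received the seed (bases 2 to 7) in an siRNA-like backbone, in percent of the control, so that a low value marks a toxic seed. The seed of miR-204-5p and miR-211-5p, UCCCUU, had a viability of 96.5%, and only 23 of 3925 seeds in the table reached this value. Sequences on those 23 seeds were 0.216% to 0.284% of a library, and miR-204-5p and miR-211-5p made up 93.7% to 95.4% of them. These names also held 98.9% to 99.1% of all CPM on the seed UCCCUU itself.

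Among the Htr2c miRNAs the viabilities were 94.7% for miR-448-3p, 87.2% for miR-1264-3p, 57.9% for miR-1298-5p, 54.4% for miR-448-5p, 40% for miR-1298-3p and 26.6% for miR-1264-5p. The arms of miR-448 and miR-1264 thus carried seeds on both sides of 70%, a level chosen here, not by the paper, to mark high viability. miR-204-3p had a seed of 35.7%. Weighted by CPM, the mean viability of the miR-204 family was 93.5%, 94.6%, 94.2% and 93.9%, that of the 6 Htr2c miRNAs was 59.3%, 56.6%, 60.3% and 60.1%, and that of all R-sRNAs was 57.7%, 57.9%, 58.1% and 58.4%. The Htr2c miRNAs as a group therefore lay near the whole RISC in this measure, with 17.7% to 24.1% of their CPM on seeds of 70% or more against 25.0% to 26.1% for all R-sRNAs.

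miR-448-3p was a minor holder of its seed. Sequences with UGCAUA summed to a mean of 6199 CPM, of which miR-153-3p, a neuronal miRNA with the same seed, gave 6086 CPM and miR-448-3p 0.187% to 0.389%. miR-448-5p held 46.2% to 57.7% of its seed AACAUC. The other members were the main source of their seeds, from 66.5% to 79.5% for miR-1298-3p to 98.7% to 99.9% for miR-204-3p.

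**Figure D5:**
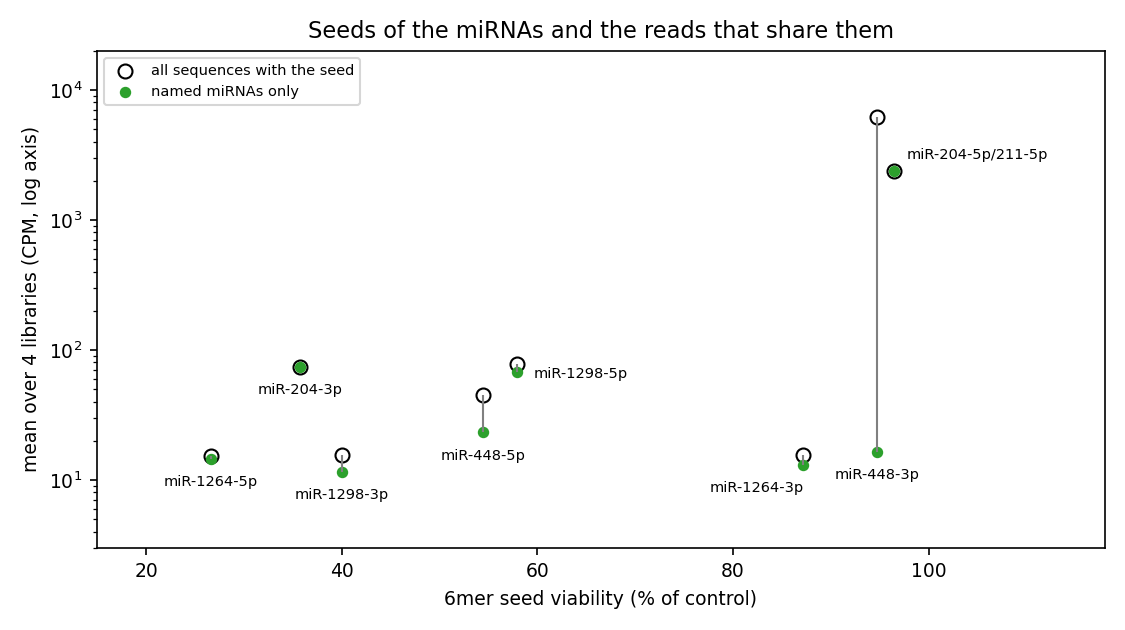
Mean CPM over the 4 libraries (log axis) of all sequences that carry a 6mer seed (open circles) and of the named miRNAs alone (green points), against the viability of the seed (% of control), with a line joining both for each seed. The points of miR-204-5p and miR-211-5p coincide with their seed's total near 96.5%, while miR-448-3p lies far under the 6199 CPM of its seed.

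The miRNAs differed in how uniform their sequences were. The most abundant sequence made up 70.4% of the reads of miR-204-5p over the 4 libraries, 79.4% for miR-1264-3p and 82.1% for miR-211-5p. It was 29.5% for miR-448-5p, where the 21-nucleotide form without the last base was nearly as common (7.25 against 7.49 CPM), and 41.3% for miR-448-3p. For miR-1298-5p it was 49.5%, and the 21-nucleotide form made up a further 33.1%.

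Bases at the 3′ end that are not in the hairpin were most common in miR-448-3p, at 20.8%, 39.8%, 34.3% and 31.0% of its reads, and stood at 13.5% in miR-1298-5p and 8.11% in miR-204-5p over the 4 libraries. In miR-204-5p most of these tails were of U only (5.90% of reads), and tails of A only were 1.31%, 1.42%, 1.73% and 1.68%. miR-1298-3p had a 19-nucleotide form that ended 3 bases early and held 18.3%, 21.1%, 19.4% and 18.3% of its reads. This share was steadier over the libraries than the level of the miRNA.

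A read that starts at another base carries another seed. Such shifted reads were 11.9% of miR-1264-3p and 10.7% of miR-448-5p, at most 3.04% of each other member over the 4 libraries, and 0 of 140 reads of miR-211-5p, which allows a share of up to 2.14%. For miR-1264-3p the shifted share was 11.7%, 8.90%, 10.3% and 17.5%, and the most abundant shifted form started 1 base upstream. It is printed beside the main form to show how 1 base moves the seed.
miR-1264-3p, main form: cAAAUCUUauuugagcaccugu
miR-1264-3p, shifted form: aCAAAUCUuauuugagcaccugu
miR-448-5p, main form: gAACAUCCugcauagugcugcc
miR-448-5p, shifted form: aACAUCCUgcauagugcugcca

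For miR-448-5p the shares were 11.2%, 13.7%, 5.26% and 13.2%, and its main shifted form started 1 base downstream. In miR-204-5p the leading shifted form was an 18-nucleotide piece without the first 4 bases, at 22.3, 14.8, 14.8 and 24.6 CPM, and the shifted share was 2.66% to 3.73%. None of the shifted shares separated the ages.

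At the level of single sequences, limma was fitted to the 14287 sequences of 1 CPM or more on average, which included 66 of these miRNAs. It called 2 of the 66 (3.03%) at an unadjusted p under 0.05, where it called 10.1% of all sequences, and 0 of the 66 passed adjustment, as did 0.0420% of all. The called sequences are printed because each differs from the main form of its miRNA at the 3′ end alone.
miR-1264-5p, 21 nucleotides: aGGUCCUCaauaaguauuugu
miR-204-5p, 21 nucleotides: uUCCCUUUgucauccuaugca

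The form of miR-1264-5p without its last base was read at 4.58 and 7.90 CPM in young and 1.32 and 1.65 CPM in old libraries (log2 change -1.50, SE 0.37, unadjusted p = 0.00245, adjusted p = 0.266, limma). This form was picked by its unadjusted p, so the lack of overlap between its ages adds no support. The full-length form was read at 7.63, 17.5, 3.97 and 10.5 CPM (log2 change -0.74, SE 0.49). As a share of the miRNA, the shorter form was 35.8% and 29.4% at 2 months and 21.9% and 12.8% at 18 months (exact permutation test, two-sided, p = 0.333, the smallest possible). The share rests on the same picked sequence. The form of miR-204-5p that ends in an A not in the hairpin was read at 2.67, 2.99, 5.96 and 5.96 CPM (log2 change 0.86, unadjusted p = 0.0257, adjusted p = 0.434, limma), and its unadjusted p lay above 0.05 without any 1 of the 4 libraries.

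The names depend on the lists to which the authors matched the reads. A second column of the table gives the class of RNA for each sequence, and there the sequences of miR-204, miR-211 and miR-448 were all of the miRNA class. All sequences of miR-1264-5p, miR-1264-3p and miR-1298-3p were instead placed under mRNAs of other genes, such as Uqcrc2 for miR-1264-3p, and 95.5% of the CPM of miR-1298-5p had no match in that column. Of the 456 tested miRNAs, 12.1% had less of their CPM in the miRNA class than outside it. A further 82 sequences without a miRNA name lay in the miR-204 hairpin and summed to 34.1, 39.9, 36.7 and 50.4 CPM, which is not in the values above.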

How the data were processed

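Small RNAs bound to Ago proteins in cortex and hippocampus were sequenced in 2 libraries of 2-month-old and 2 of 18-month-old mice. The authors trimmed the reads (Trim Galore is listed in the submitters' processing notes), dropped rare reads, ran BLAST against small RNA lists and deposited, per sequence and library, read numbers scaled to a common total (CPM). Each row also has a score from the authors, the 6mer seed viability. Their values NormTotal, the sum of the CPM over the libraries, were not used as levels. The table's RNA names are tied to mm9, whereas positions here are from GENCODE and RefSeq on GRCm38, where hairpins were matched by name and sequences by letters.

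Whole reads were recovered from the CPM steps. The CPM worth of a read was fitted on NormTotal in sequences seen in a single library, where it equals the CPM. With it, 100% of nonzero values were whole within 0.02 reads. The reads behind the scale ran from 9067007 to 11388999 per library. Reads carry no molecular identifiers, so intervals and the floor of 3 reads cover counting error only. Groups and replicate numbers come from the sample labels.

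The methods of the paper call rows at p under 0.05 without naming a test. Here log2(CPM + 1) values were fitted by limma (trend on, two-sided) on age, for 456 names of 10 CPM or more on average and 14287 sequences of 1 CPM or more, with Benjamini-Hochberg adjustment over all of them. A fold change on this scale understates that of a low miRNA. Exact permutation tests compared shares between the ages, and the seed of the most abundant sequence was the reference for shifted reads. edgeR and DESeq2 on the recovered reads, other pseudocounts, filters and scalings, a replicate block and fits without each library were alternatives. On simulated counts for 18 against 2 months (456 names, dispersion 0.05), limma recovered 88.5% of changes of 2-fold and 100% of 4-fold at an unadjusted p under 0.05, and called 4.69% and 3.91% of unchanged names. For 14287 sequences it recovered 95.5% at 4-fold. edgeR's common dispersion of the real names was 0.0578. The simulation gave every name the same dispersion, so its recovery need not hold for miRNAs with a larger SE, such as miR-1298-5p (0.70).

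The named miRNAs are the members, the other arms of their hairpins in Htr2c and of miR-211, the 3 nearest tested miRNAs of each tested member, and the most abundant and most abundant shifted sequence of each. Others with values were named after their values were seen. The members and lists were chosen with earlier results of these data known. miR-211-3p and the arms of miR-1911 were looked for by name and had 0 sequences in the table. Lists of oligodendrocyte, blood and leukocyte miRNAs held 0 called, that of neurons 0 of 6 and that of endothelium 1 of 4. Over all 456 tested miRNAs, 16.2% were called. Tools were R 4.3.3, limma 3.58.1, edgeR 4.0.16, DESeq2 1.42.0, Python 3.11.15, matplotlib 3.10.9, scipy 1.17.1, pandas 2.3.3 and numpy 2.4.6.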

Additional observations from a re-analysis of the deposited data

How the results depend on the processing

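With 2 libraries per age, a single library could set a direction, and the causes were not tested. Over the limma, edgeR and DESeq2 alternatives for the 8 tested miRNAs, 104 values kept the direction and the side of the unadjusted threshold, 12 turned the sign and 4 kept it with an unadjusted p under 0.05. With 1 of the turned values, miR-1298-5p without 18 months replicate 1, 5 values were under 0.05. The sign turned for miR-448-3p after rescaling (0.11), in edgeR (0.23) and in DESeq2 (0.22), for miR-1298-5p in edgeR (0.25) and DESeq2 (0.24), and otherwise in fits without 1 library. Without each library in turn, where the lone library of an age is assumed to vary like the other pair, the log2 change ran from -0.066 to 0.26 for miR-204-5p, from -0.12 to 0.41 for miR-204-3p, from -0.65 to 0.48 for miR-448-3p, from -1.49 to -0.48 for miR-1264-5p, from -0.73 to -0.044 for miR-1264-3p, from -0.84 to -0.0096 for miR-1298-3p and from -1.52 to 0.79 for miR-1298-5p. The most abundant sequence of a miRNA turned its sign likewise, with log2 changes from -0.11 to 0.26 for miR-204-5p, from -0.27 to 0.41 for miR-204-3p, from -0.62 to 0.47 for miR-211-5p, from -0.51 to 0.40 for miR-448-3p, from -0.87 to 0.14 for miR-448-5p and from -1.32 to 0.53 for miR-1298-5p. Of all 456 miRNAs, 74 were called, against 125 without a filter, 43 at 100 CPM or more and 1 after adjustment, where the filters also changed how many were tested. DESeq2 called 19 after adjustment and edgeR 0. Of the member sequences, 2 were called, against 5 without a filter, 0 at 10 CPM or more, and 2 to 5 without 1 library. The difference in the share of shifted reads between the ages, in percentage points, ran without 1 library, an alternative chosen after seeing the data, from -7.15 to 0.81 for miR-448-5p, from -0.025 to 7.18 for miR-1264-3p and, on 4 and 5 shifted reads in all, from 0 to 6.25 for miR-1264-5p and from -2.69 to 0 for miR-1298-3p. The log2 ratio of Htr2c miRNAs to the family differed by -0.36 between the ages, and by -0.84 to 0.11 without 1 library.

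Replicate numbers did not pair the libraries, which came from different mice at each age, and same-numbered libraries had a correlation of 0.180 in their deviations. With the number as a replicate block, limma called 79 miRNAs, and miR-1264-5p, at a log2 change of -0.98, had an unadjusted p of 0.0197 and an adjusted p of 0.280.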
